A study of Homo sapiens with 18 samples.

Results

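The circadian clock genes examined here were BHLHE40, BHLHE41, PER1, PER2, PER3, CRY1, CRY2, NR1D1, DBP and CLOCK. They were taken by gene symbol, were chosen with earlier results of these data known, and are 10 of the 28277 genes counted. The data were RNA-seq of OVCAR3, an established ovarian cancer cell line, engineered to carry dCas9-KRAB, a catalytically dead Cas9 fused to a repressor domain that silences the promoter a guide RNA points to (CRISPR interference). All 6 groups shared this background. Clonal cells carried either sgCtl, a control guide against a Gal4 promoter, or sgXIST7 or sgXIST9, guides against the promoter of XIST, the long noncoding RNA of X chromosome inactivation. Each was kept in normoxia or in hypoxia, which was 1% O2 for 24 h, with 3 libraries in each of the 6 groups. The sources used here do not say how many clones stand for each guide, so the guide and the clone cannot be told apart. Below, a clone means the cells of 1 guide. The question posed was how XIST knockdown (XIST KD) and low oxygen shape transcription.

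The mammalian clock is a loop of transcription factors. CLOCK and BMAL1, both bHLH-PAS proteins, bind E-boxes and activate the PER and CRY genes, whose proteins return to the nucleus and repress their own activators. BHLHE40 and BHLHE41, also called DEC1 and DEC2, compete for the same E-boxes as a second set of repressors, the nuclear receptor NR1D1 (REV-ERBα) represses BMAL1, and DBP carries the rhythm to output genes through D-boxes. The clock meets oxygen sensing at several points, since the hypoxia-inducible factors are bHLH-PAS proteins as well and BHLHE40 and BHLHE41 are long known as hypoxia-induced genes. Neither the time of day of harvest nor a synchronization of the cells is stated in the sources used here, so each group is 1 time point and no rhythm can be read from it.

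Library totals ranged from 11794375 to 24906936 counts (median 17629433.5), and all 10 genes were among the 14938 that passed the filter on low counts. XIST, the targeted gene, averaged 479 CPM (counts scaled to a common library size, TMM-normalized) in sgCtl normoxia and 171 in sgCtl hypoxia, 0.161 and 0.117 in sgXIST7, and 45.0 and 23.3 in sgXIST9, so XIST was lower in the sgXIST7 clone. The sgCtl libraries spread widely, with 328.7, 867 and 241.9 CPM in normoxia and 123.4, 248.8 and 140.8 CPM in hypoxia, and overlapped. Of 8 epithelial or ovarian carcinoma markers, 4 (EPCAM, KRT8, KRT18 and PAX8) had at least 10 counts in every library, and KRT7, CDH1 and MUC16 were at or near 0. Of 4 fibroblast markers only 1, the collagen COL3A1, had at least 10 counts in every library. It was high, at 851.8 to 1018 CPM on average in sgCtl and sgXIST7 groups and 522.8 to 600.8 CPM in those of sgXIST9. Leukocyte and endothelial markers summed to less than 1 CPM in every library. The hypoxia library with replicate number 3 was the shallowest of its group in all 3 clones. It also lay at the same end of its group on the third principal component of all genes. In sgXIST7 the 3 hypoxia libraries were spread along that component (19.9, 34.1 and 50.6), and the other 2 formed no pair. Results that rest on the replicate 3 hypoxia libraries are given with and without them.

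In hypoxia 5 of the 10 clock genes rose in sgCtl cells (BHLHE40, BHLHE41, PER1, PER2 and CRY2), the same 5 rose in sgXIST7 cells and 4 of them, all but PER2, rose in sgXIST9 cells. None was called lower by the limits given below. PER3 was lower in hypoxia in all 3 clones, at -0.43, -0.63 and -0.62 on the log2 scale, short of the fold limit. Since the genes were chosen with earlier results known, these counts of genes that rose are not independent evidence. BHLHE41, which passed the filter on low counts only through its hypoxia libraries, is 1 of these. A gene was called changed at an adjusted p below 0.01 with an absolute log2 fold change above 1 in edgeR's quasi-likelihood test over all genes. Among all genes tested, 19.7%, 27.3% and 23.3% were called in sgCtl, sgXIST7 and sgXIST9, and 11.3%, 15.1% and 14.7% were called higher. Over the 10 genes the median response was 0.69, 0.82 and 0.65 on the log2 scale (0.65 in sgCtl with BHLHE41 set to its lower bound), beside medians of 0.017, 0.0096 and 0.088 over all genes tested. The libraries of the 2 oxygen groups did not overlap for 6, 7 and 8 of the 10 genes, beside 54.9%, 63.9% and 65.9% of all genes tested. In bulk RNA, fewer cells that express a gene and less RNA per cell cannot be told apart.

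**Figure D1:**
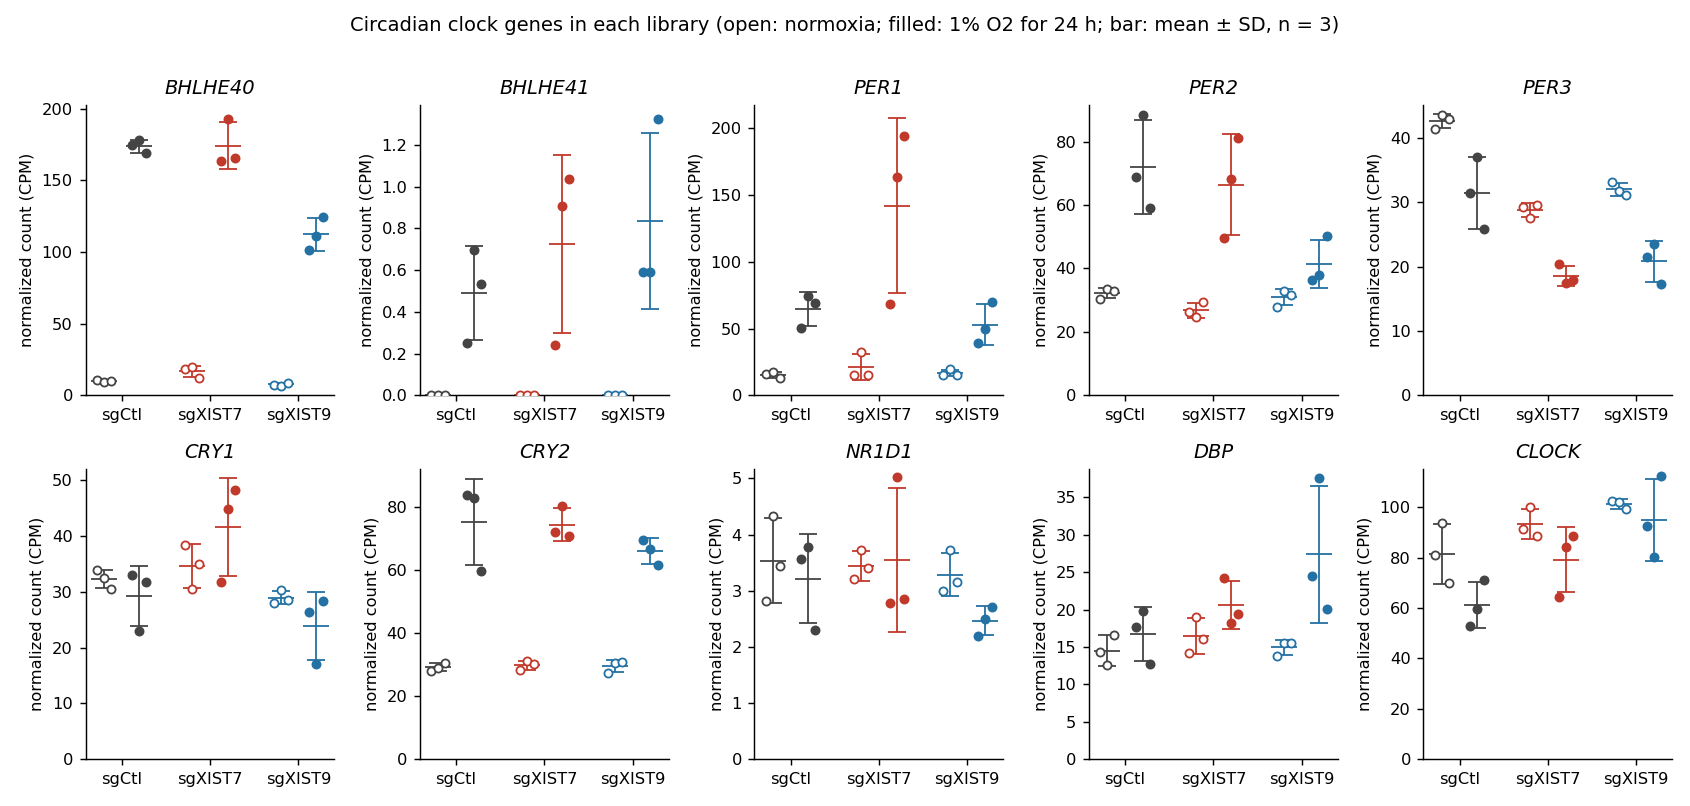
Normalized counts (CPM, linear axes from 0) of the 10 clock genes in each of the 18 libraries. Open points are normoxia and filled points hypoxia, and bars give the mean ± SD of 3 libraries; BHLHE40 moved from 6.64 to 19.8 CPM in normoxia to 101 to 193 CPM in hypoxia, while BHLHE41 had no count in normoxia.

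BHLHE40 and BHLHE41 are bHLH repressors of CLOCK and BMAL1 activity. Their promoters, the 250 bases before the RefSeq start site and the 50 after it, are printed because both genes rose in all 3 clones. BHLHE40 lies at chr3:4979437-4985323 on the plus strand of hg38 and BHLHE41 at chr12:26120030-26125037 on the minus strand. The windows, chr3:4979187-4979486 and chr12:26124988-26125287 of GRCh38.p14, are written 5′ to 3′ on the strand of the gene. Capitals mark the E-box CACGTG and the cores of the hypoxia response element, ACGTG and GCGTG, on either strand (read as CACGT or CACGC on the other strand). Each E-box also holds ACGTG on both strands.
BHLHE40: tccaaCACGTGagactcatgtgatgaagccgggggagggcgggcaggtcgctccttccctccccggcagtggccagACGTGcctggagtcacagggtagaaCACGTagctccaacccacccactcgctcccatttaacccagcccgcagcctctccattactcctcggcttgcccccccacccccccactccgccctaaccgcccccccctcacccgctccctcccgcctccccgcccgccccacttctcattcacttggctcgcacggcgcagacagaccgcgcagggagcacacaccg
BHLHE41: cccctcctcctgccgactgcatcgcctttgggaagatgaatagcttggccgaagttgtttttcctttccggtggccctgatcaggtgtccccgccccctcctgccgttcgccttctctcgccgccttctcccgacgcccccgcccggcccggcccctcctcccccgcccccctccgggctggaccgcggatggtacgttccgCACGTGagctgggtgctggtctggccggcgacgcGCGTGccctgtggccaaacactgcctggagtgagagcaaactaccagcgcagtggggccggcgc
BHLHE40 held an E-box 245 bases before its start site and single ACGTG cores starting 174 and 149 bases before it. BHLHE41 held an E-box 48 bases and a GCGTG core 14 bases before its start site. Of the 35116 promoter windows of this length, 7.26% held CACGTG, 21.4% held ACGTG and 36.5% held GCGTG. Of the 10 clock genes, CACGTG was in 3 (BHLHE40, BHLHE41 and PER1), ACGTG in 7 and GCGTG in 6, and genes that were not called in hypoxia, CRY1 and NR1D1, held ACGTG too. These counts use 1 window per gene, the nearest to the gene start in the deposited data. PER3, CRY2 and CLOCK had a further start site. The further window of CLOCK held 1 ACGTG and 1 GCGTG, which its counted window lacked. A match is a run of letters and no evidence of binding.

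BHLHE40 showed the largest response of the 9 clock genes with counts in both oxygen states. In sgCtl cells its 3 normoxia libraries held 10.6, 9.36 and 9.70 CPM and its hypoxia libraries 174.9, 178.1 and 169.1 CPM. In sgXIST7 cells they held 18.2, 19.8 and 12.03 CPM in normoxia and 163.8, 193.2 and 165.6 CPM in hypoxia. In sgXIST9 cells they held 7.28, 6.64 and 8.76 CPM in normoxia and 101.4, 111.5 and 124.5 CPM in hypoxia. Every hypoxia library stood above every normoxia library. The fitted response on the log2 scale was 4.14 ± 0.17 (SE) in sgCtl, 3.39 ± 0.16 in sgXIST7 and 3.90 ± 0.17 in sgXIST9, which is 17.6-, 10.5- and 14.9-fold (adjusted p = 2.9e-11, 1.2e-10 and 5.1e-11). For 3 libraries against 3, the smallest p of an exact two-sided permutation test is 0.1, and BHLHE40 reached it in all 3 clones.

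BHLHE41 appeared in hypoxia only at low counts. It had 0 counts in all 9 normoxia libraries, where 3 counts, the limit that a count of 0 allows, correspond to at most 0.232 CPM in the shallowest library. In hypoxia it had 4, 14 and 6 counts in sgCtl, 5, 20 and 12 in sgXIST7, and 13, 13 and 21 in sgXIST9, or 0.239 to 1.32 CPM. Set against that limit in the shallowest normoxia library of each clone, the mean was at least 2.12-, 4.36- and 4.77-fold higher. The adjusted p was 0.0041, 0.00063 and 0.00058, but having passed the filter through hypoxia alone, BHLHE41 had to differ. In sgCtl the call was lost without any single normoxia library and without the hypoxia library of replicate 2 (highest adjusted p = 0.015). These limits cover counting error only.

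The PER proteins are the repressors whose accumulation closes the loop. PER1 (chr17:8140472-8152404, minus strand) and PER2 (chr2:238244044-238288610, minus strand) rose, and their promoters, chr17:8152355-8152654 and chr2:238288561-238288860 of GRCh38.p14 with the same capitals, are printed for comparison with those above.
PER1: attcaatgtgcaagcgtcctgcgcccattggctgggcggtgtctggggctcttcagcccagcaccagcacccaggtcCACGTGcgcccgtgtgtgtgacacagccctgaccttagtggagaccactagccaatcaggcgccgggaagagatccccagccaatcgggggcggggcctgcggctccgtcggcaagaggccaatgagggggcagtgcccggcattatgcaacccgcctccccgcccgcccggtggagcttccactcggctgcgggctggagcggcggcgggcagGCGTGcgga
PER2: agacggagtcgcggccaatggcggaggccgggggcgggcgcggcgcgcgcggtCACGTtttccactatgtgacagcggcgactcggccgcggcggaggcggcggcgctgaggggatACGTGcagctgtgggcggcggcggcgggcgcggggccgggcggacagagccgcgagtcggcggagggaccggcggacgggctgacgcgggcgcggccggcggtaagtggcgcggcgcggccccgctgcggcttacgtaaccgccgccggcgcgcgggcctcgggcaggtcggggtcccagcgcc
PER1 held an E-box 173 bases before its start site. PER2 held no CACGTG but 2 separate ACGTG cores, starting 197 and 134 bases before its start site, and the D-box TTACGTAA, which is left in lower case and stood in 44 of the 35116 windows.

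PER1 rose in all 3 clones, by 4.24-fold in sgCtl, 6.74-fold in sgXIST7 and 3.18-fold in sgXIST9. In sgCtl cells it went from 15.7, 17.6 and 12.7 CPM to 50.6, 74.3 and 69.4 CPM. In sgXIST7 cells it went from 15.6, 32.3 and 15.6 CPM to 68.4, 163.5 and 194.1 CPM, and in sgXIST9 cells from 14.9, 19.5 and 15.5 CPM to 39.5, 49.7 and 69.6 CPM. The oxygen groups did not overlap in any clone, but the sgXIST7 hypoxia libraries spread more widely (142 ± 65.5 CPM, SD, n = 3) than those of sgCtl (64.8 ± 12.5) or sgXIST9 (52.9 ± 15.3). The log2 fold changes were 2.08 ± 0.35, 2.75 ± 0.35 and 1.67 ± 0.34 (SE; adjusted p = 0.00012, 4.2e-06 and 0.0006). Without the hypoxia libraries of replicate 3 the value in sgXIST9 was 1.43 and missed the threshold (adjusted p = 0.011), while sgCtl and sgXIST7 stayed called. In sgXIST9 PER1 was called in 15 of 17 alternatives, with a highest adjusted p of 0.044. The alternatives that only loosened the limit could not lose a call.

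PER2 rose by 2.24-fold in sgCtl and 2.48-fold in sgXIST7 and was not called in sgXIST9. The sgCtl libraries held 30.3, 33.5 and 33.0 CPM in normoxia and 68.8, 88.3 and 59.0 CPM in hypoxia, and the sgXIST7 libraries 26.1, 24.7 and 29.4 CPM and then 49.6, 68.3 and 81.2 CPM. The sgXIST9 libraries held 28.0, 32.8 and 31.8 CPM in normoxia and 36.4, 37.8 and 50.2 CPM in hypoxia, so that they did not overlap but lay close. Its response was 1.16 ± 0.18 on the log2 scale (adjusted p = 4.5e-05), 1.31 ± 0.18 (7.9e-06) and 0.42 ± 0.18 (0.049). The test of the difference itself did not pass, since the response of sgXIST9 minus that of sgCtl was -0.74 (adjusted p = 0.092) and that of sgXIST7 minus that of sgXIST9 was 0.88 (adjusted p = 0.09). Without the hypoxia libraries of replicate 3 the difference between sgXIST9 and sgCtl was -1.01 and was called (adjusted p = 0.0018). Without sgCtl hypoxia replicate 2 the sgCtl response was 0.99, below the fold limit.

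PER3 (chr1:7784187-7845180, plus strand) encodes the least essential PER protein of the core loop and lay on the opposite side. Its libraries held 41.4, 43.6 and 42.9 CPM in sgCtl normoxia and 31.5, 37.0 and 25.9 CPM in hypoxia. In sgXIST7 they held 29.3, 27.5 and 29.6 CPM and then 20.4, 17.4 and 17.9 CPM, and in sgXIST9 33.1, 31.8 and 31.1 CPM and then 21.6, 23.6 and 17.4 CPM. Every hypoxia library was below every normoxia library of its clone. On the log2 scale the difference was -0.43 (adjusted p = 0.011), -0.63 (0.00056) and -0.62 (0.00077), so the 95% intervals (-0.71 to -0.16, -0.91 to -0.36 and -0.89 to -0.34) excluded 0 but no value reached the fold limit.

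**Figure D2:**
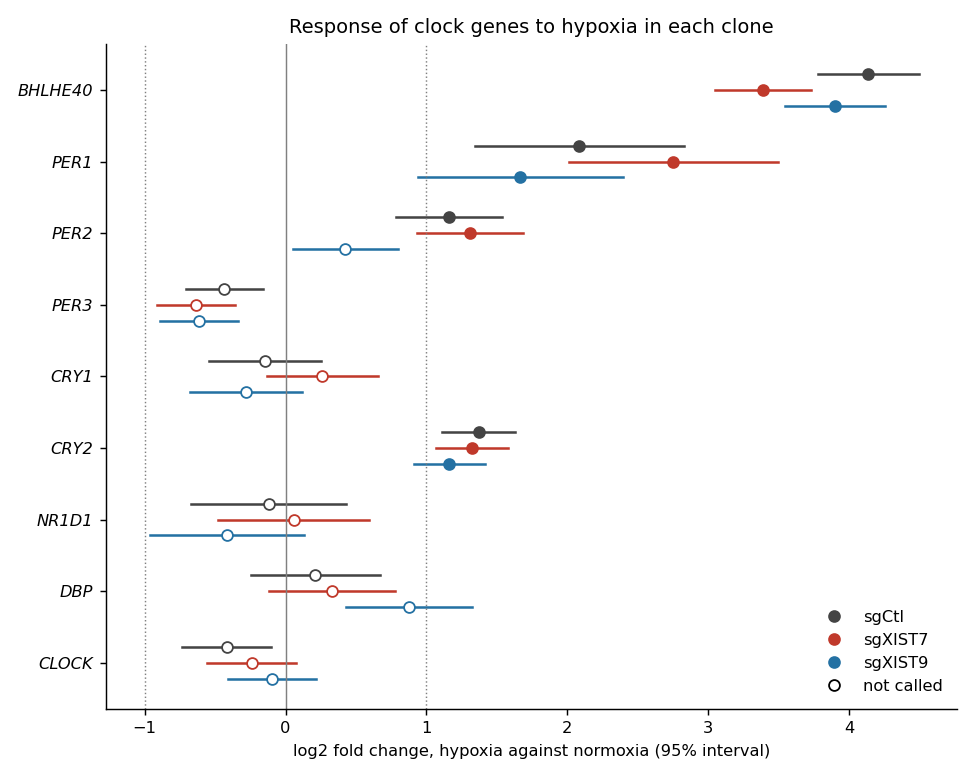
Log2 fold change of hypoxia against normoxia with its 95% interval for 9 clock genes in sgCtl, sgXIST7 and sgXIST9; BHLHE41 is left out because it had no normoxia count. Filled points were called, dotted lines mark the fold limit, and the values run from 4.14 for BHLHE40 to -0.63 for PER3.

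The cryptochromes CRY1 and CRY2 are the partners of the PER proteins in repression, and of this pair CRY2 was called. CRY2 (chr11:45847118-45883248, plus strand) held 28.0, 29.0 and 30.4 CPM in sgCtl normoxia and 83.7, 82.7 and 59.5 CPM in hypoxia. In sgXIST7 it held 28.2, 31.0 and 30.0 CPM and then 72.1, 80.4 and 70.6 CPM, and in sgXIST9 27.2, 30.5 and 30.7 CPM and then 69.5, 66.7 and 61.5 CPM. Normoxia and hypoxia were well separated, and the 3 clones lay close together in each. CRY2 rose by 1.37 ± 0.12, 1.32 ± 0.12 and 1.16 ± 0.12 on the log2 scale (SE; adjusted p = 1.4e-07, 9.4e-08 and 5.4e-07), and no difference in response between clones passed (-0.21 to 0.16, smallest adjusted p = 0.51). CRY2 stayed called in all 3 clones under each of the 17 alternatives run per clone. Those that only loosened the limit could not lose a call.

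The RefSeq table gives CRY2 a pair of start sites, 357 bases apart, and both windows (chr11:45846868-45847167 and chr11:45847225-45847524 of GRCh38.p14, plus strand) are printed since the counts do not tell which was used. Capitals are as above.
CRY2, first start: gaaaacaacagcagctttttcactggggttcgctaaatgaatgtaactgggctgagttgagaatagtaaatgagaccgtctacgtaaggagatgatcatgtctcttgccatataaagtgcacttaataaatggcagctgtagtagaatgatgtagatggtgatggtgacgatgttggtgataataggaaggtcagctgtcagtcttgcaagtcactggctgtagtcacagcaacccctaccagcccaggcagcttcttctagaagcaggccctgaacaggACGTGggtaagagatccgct
CRY2, second start: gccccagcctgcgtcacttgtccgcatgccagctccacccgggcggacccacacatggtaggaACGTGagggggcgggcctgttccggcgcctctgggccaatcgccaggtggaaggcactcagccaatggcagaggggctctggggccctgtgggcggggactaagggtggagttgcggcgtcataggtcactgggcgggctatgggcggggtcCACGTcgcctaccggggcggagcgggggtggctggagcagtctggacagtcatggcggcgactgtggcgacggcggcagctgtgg
The first window held 1 ACGTG core and 46.3% G or C, the second 2 cores and 70.3%, and neither held CACGTG.

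CRY1 (chr12:106991365-107093549, minus strand) did not share this response. It ranged from 28.0 to 38.4 CPM in the 9 normoxia libraries and from 17.0 to 48.3 CPM in hypoxia, with overlap in each clone. The log2 fold change was -0.15 in sgCtl (95% interval -0.54 to 0.25), 0.26 in sgXIST7 (-0.13 to 0.65) and -0.28 in sgXIST9 (-0.68 to 0.12). In each clone the interval of CRY2 (1.11 to 1.63, 1.07 to 1.58 and 0.91 to 1.42) lay above that of CRY1.

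NR1D1, the REV-ERBα receptor, lies at chr17:40092793-40100589 (minus strand) and was the lowest of the 9 genes counted in normoxia. It held 2.82 to 4.33 CPM in normoxia and 2.19 to 5.03 CPM in hypoxia, and its log2 fold change was -0.12, 0.059 and -0.42, with intervals from -0.96 to 0.60. Of its exon bases 17.985% (473 of 2630) lie opposite exons of THRA on the other strand. Whether counting used strand is not stated, so reads there may belong to either gene. THRA itself had log2 fold changes of -0.70 (adjusted p = 0.0012), 0.39 (0.031) and 0.18 (0.31), none of them called.

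DBP, the D-box activator (chr19:48630030-48637379, minus strand), held 14.3, 12.5 and 16.7 CPM in sgCtl normoxia and 17.7, 19.8 and 12.8 CPM in hypoxia, with overlap. In sgXIST7 it held 14.2, 19.1 and 16.0 CPM and then 24.2, 18.2 and 19.3 CPM, again with overlap. In sgXIST9 it held 13.8, 15.6 and 15.5 CPM and then 24.5, 37.6 and 20.01 CPM, without overlap. The differences on the log2 scale were 0.21 (adjusted p = 0.43), 0.33 (0.19) and 0.88 (0.0022), below the fold limit in each clone. In sgXIST9 it was called at 1.06 without the hypoxia libraries of replicate 3 (adjusted p = 7.1e-05). DBP shares 377 of its 2170 exon bases (17.4%) with SPHK2 on the other strand, whose log2 fold change was between -0.23 and 0.29.

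CLOCK, the activator itself (chr4:55427901-55546909, minus strand), averaged 81.6 ± 11.9 CPM (SD, n = 3) in sgCtl normoxia and 61.2 ± 9.21 in hypoxia. In sgXIST7 it averaged 93.4 ± 6.13 and 79.1 ± 12.9, and in sgXIST9 101 ± 1.87 and 95.01 ± 16.2. The oxygen groups overlapped in sgCtl and sgXIST9. The log2 fold change was -0.42 (adjusted p = 0.028), -0.24 (0.17) and -0.094 (0.61). In all 3 clones the hypoxia library of replicate 3 held the most CLOCK and the least CRY2, so the pair moved apart between libraries of 1 group.

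Per length of the exons counted for each gene, the order of the clock genes changed with oxygen. That length covers all annotated exons and not 1 expressed transcript, so the order between genes depends on the annotation too. In normoxia CRY1 stood highest in each clone, with mean levels of 10.8, 11.6 and 9.70 RPKM (CPM divided by the gene's length in kilobases) in sgCtl, sgXIST7 and sgXIST9, and was above CLOCK without overlap. BHLHE40, at 3.14, 5.29 and 2.40 RPKM, ranked 8th, 5th and 8th of 10, and NR1D1 (1.25 to 1.34 RPKM) and BHLHE41 closed the order. In hypoxia BHLHE40 stood first, at 55.2, 55.3 and 35.7 RPKM, and did not overlap the next gene in any clone. That gene was CRY2 in sgCtl (17.5 RPKM) and sgXIST9 (15.3 RPKM) and PER1 in sgXIST7 (30.4 RPKM, 14.6 to 41.5), and PER1 and CRY2 overlapped each other in all 3 clones. BHLHE41 stayed last, at 0.131 to 0.223 RPKM.

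**Figure D3:**
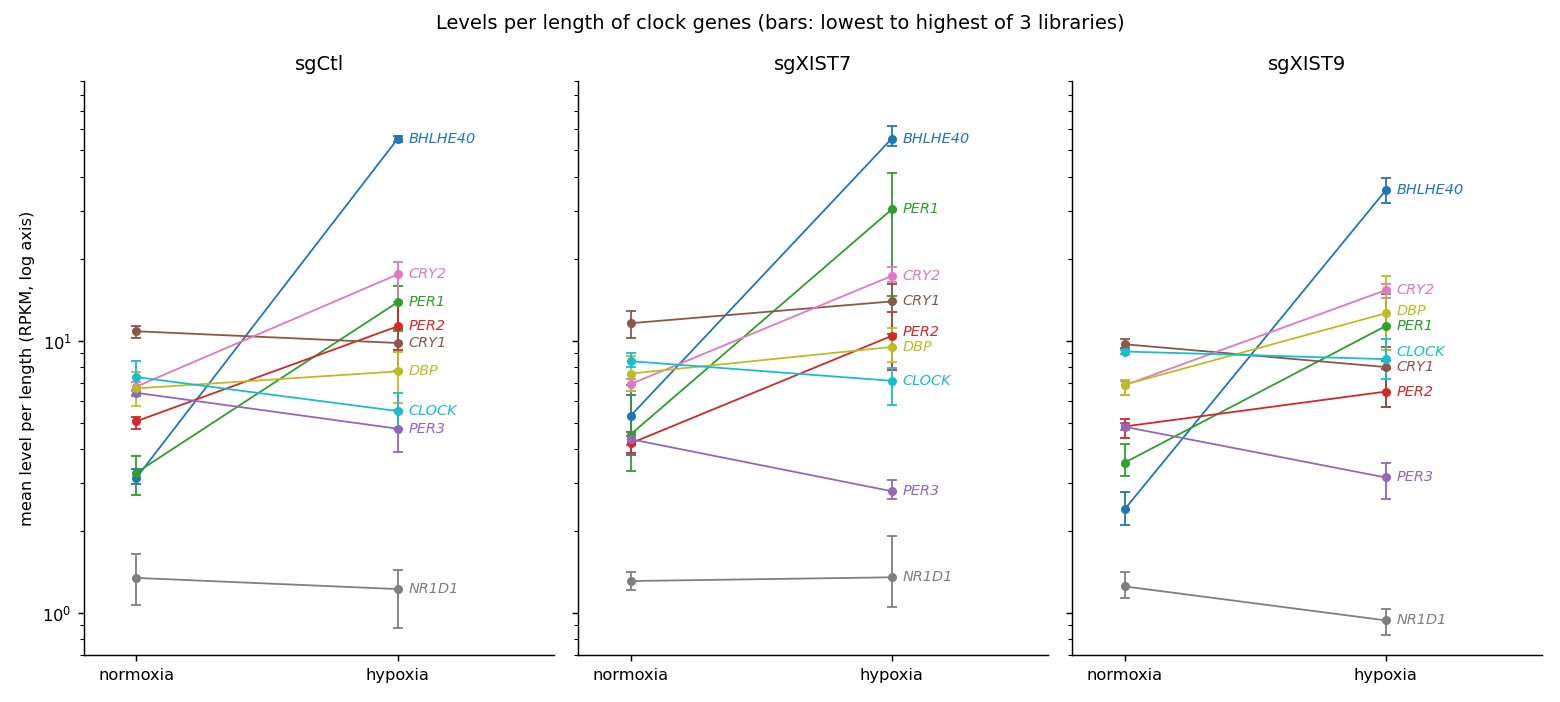
Mean level per length (RPKM, log axis) of 9 clock genes in normoxia and hypoxia in each clone, with bars from the lowest to the highest of 3 libraries; BHLHE41 is left out because it was 0 in normoxia. BHLHE40 crosses from 2.40 to 5.29 RPKM up to 35.7 to 55.3 RPKM, above all others.

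XIST KD against sgCtl gave no call among the 10 genes, in normoxia or in hypoxia. BHLHE41 had no count in normoxia and so could not be called in that state or in a difference of responses between clones. The normoxia counts below rest on the other genes. PER1 in sgXIST7 hypoxia lay close to the limit, at 1.13 (adjusted p = 0.012), and was called under the replicate block (1.08, adjusted p = 0.0041) and under DESeq2 (1.14, adjusted p = 0.0032). Over 17 alternatives it was called in 5, with values of 0.84 to 1.46 and an adjusted p of up to 0.15. Among these 5 were the settings that only loosen the limit to 0.05, which the main fit already passed. Its sgXIST7 and sgCtl libraries overlapped in hypoxia. In normoxia 7.76% of all genes were called in sgXIST7 and 7.7% in sgXIST9, and in hypoxia 14% and 9.53%. At an adjusted p below 0.05 with no fold limit, 2 of the 10 passed in sgXIST7 and 1 in sgXIST9 in normoxia (background 21.6% in both), and 3 and 5 in hypoxia (background 42.3% and 29.6%). Both comparisons in each oxygen state use the same sgCtl libraries.

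PER3 passed this looser limit in all 4 of these comparisons. The sgCtl libraries lay above those of both KD clones in both oxygen states, with no overlap. Against sgCtl, 45.5% of all genes did not overlap in sgXIST7 and 53.9% in sgXIST9 in normoxia, and 40.5% and 33.7% in hypoxia. In normoxia PER3 averaged 42.6 ± 1.11 CPM in sgCtl, 28.8 ± 1.14 in sgXIST7 and 32.0 ± 1.04 in sgXIST9 (SD, n = 3). Against sgCtl the log2 difference was -0.57 (adjusted p = 0.0041) in sgXIST7 and -0.41 (0.03) in sgXIST9. In hypoxia PER3 averaged 31.5 ± 5.57, 18.5 ± 1.59 and 20.8 ± 3.16 CPM, with log2 differences of -0.77 (adjusted p = 0.00025) and -0.60 (0.0024). The normoxia value of sgXIST9 missed 0.05 with no filter on low counts (adjusted p = 0.056), without all libraries of replicate number 3 (0.056) and with any 1 of its 6 libraries left out (0.059 to 0.097). Its hypoxia value missed 0.05 with only the groups compared (adjusted p = 0.09).

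BHLHE40 in normoxia was highest in sgXIST7 and lowest in sgXIST9, with no overlap between the 3 clones. The 3 clones did not overlap for PER3 either. Between sgXIST7 and sgXIST9 in normoxia 3 of the 10 genes did not overlap, beside 40.7% of all genes. The log2 difference was 0.75 for sgXIST7 against sgCtl (adjusted p = 0.0022), -0.39 for sgXIST9 against sgCtl (0.11) and 1.14 for sgXIST7 against sgXIST9 (0.00011), the last of which was called, beside 3.4% of all genes. In hypoxia sgXIST7 and sgCtl overlapped (log2 difference 0.0017, 95% interval -0.30 to 0.31), and sgXIST9 lay below both, by -0.63 against sgCtl (adjusted p = 0.0034). The response of BHLHE40 to hypoxia was lower in sgXIST7 than in sgCtl at an adjusted p below 0.05 (difference -0.75 ± 0.22 SE on the log2 scale, adjusted p = 0.04), which does not pass 0.01 and was 0.069 with only the groups compared. It was 1 of the 10 genes to pass 0.05 there, beside 9.39% of all genes with no fold limit. For sgXIST9 minus sgCtl and for sgXIST7 minus sgXIST9 none of the 10 passed, beside 5.27% and 1.34% of all genes. PER2 passed 0.05 under DESeq2 in both (adjusted p = 0.042 and 0.022), and under the replicate block in the latter (0.047). None of the 10 was called in the 3 comparisons of responses, where 1.52%, 1.01% and 0.167% of all genes were. BHLHE41, without a normoxia count, could not pass in these 3.

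PER1 was higher in sgXIST7 than in sgXIST9 hypoxia by 1.42 on the log2 scale and was called (adjusted p = 0.007), beside 4.46% of all genes. This call rested on few libraries: it was lost without sgXIST7 hypoxia replicate 2 or 3 or sgXIST9 hypoxia replicate 1 or 2 (adjusted p up to 0.046), and without the hypoxia libraries of replicate 3 (0.041). Against sgCtl the sgXIST7 value was 1.13 (adjusted p = 0.012). At an adjusted p below 0.05 without a fold limit, 4 clock genes differed between sgXIST7 and sgXIST9 in hypoxia (BHLHE40, CRY1, PER1 and PER2; background 18%) and 1 in normoxia (BHLHE40; background 8.88%). All 4 stood higher in sgXIST7, CRY1 by 0.80 (adjusted p = 0.0072) and PER2 by 0.68 (0.013). The libraries of PER1 and PER2 overlapped between these hypoxia groups. BHLHE40, CRY1, CRY2 and NR1D1 did not overlap, which is 4 of the 10 genes, beside 29.7% of all genes. PER2 in sgXIST9 hypoxia was also below sgCtl, by -0.80 (adjusted p = 0.0023). There DBP and CLOCK lay above sgCtl, by 0.71 (0.019) and 0.64 (0.0039).

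**Figure D4:**
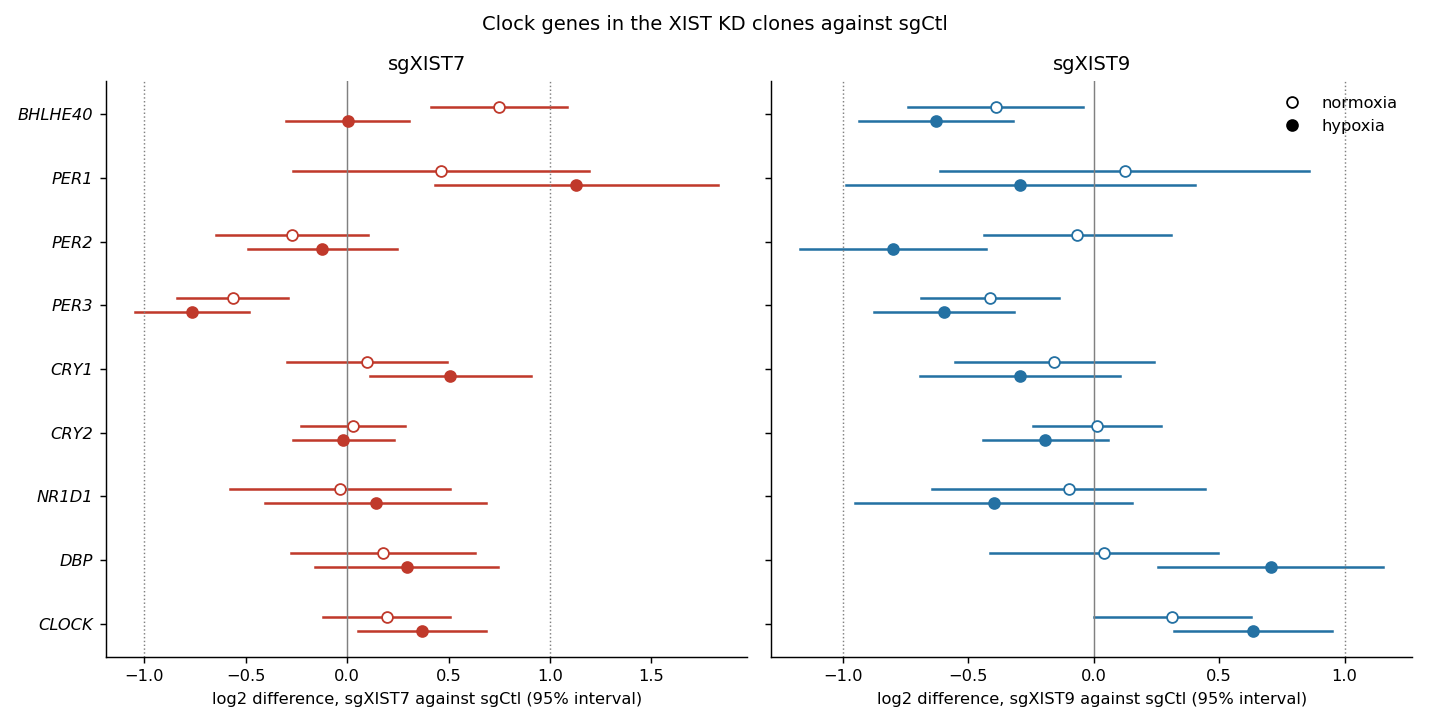
Log2 difference of each KD clone from sgCtl with its 95% interval for 9 clock genes, in normoxia (open) and hypoxia (filled), with dotted lines at the fold limit; BHLHE41 is left out because it had no normoxia count. PER3 lies below 0 in all 4 comparisons, from -0.41 to -0.77, and BHLHE40 lies at 0.75 and 0.0017 in sgXIST7.

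The rest of the clock machinery was described with a list of 21 further genes, of which 19 were tested (RORB and FBXL21P were too low). Their median response to hypoxia was 0.38, 0.33 and 0.16 on the log2 scale in sgCtl, sgXIST7 and sgXIST9. In hypoxia 6 rose and 2 fell in sgCtl, 6 and 3 in sgXIST7, and 5 and 3 in sgXIST9. The shares of all genes called lower were 8.49%, 12.2% and 8.58%. Among the activators, ARNTL, which encodes BMAL1, rose by 2.64, 1.99 and 1.68 on the log2 scale in sgCtl, sgXIST7 and sgXIST9, and its paralog ARNTL2 fell (-1.20, -1.46 and -1.42). NPAS2, the CLOCK paralog, was not called (0.27, 0.031 and -0.049). RORA, a nuclear receptor and activator of BMAL1, rose by 3.71, 4.11 and 2.92.

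The further repressors CIART and CIPC, which act on CLOCK and BMAL1, rose in all 3 clones (CIART by 2.30, 3.19 and 2.70, CIPC by 1.08, 2.12 and 1.20). NFIL3, the D-box repressor that opposes DBP, rose by 1.45, 1.38 and 1.83, and HLF, a D-box activator of the DBP family, fell from 4.18 to 7.05 CPM in normoxia to 0.239 to 0.844 CPM in hypoxia (-2.88, -3.82 and -3.82). TIMELESS fell in sgXIST7 (-1.61) and sgXIST9 (-1.23) and stood at -0.80 in sgCtl (adjusted p = 9e-05). Of the kinases and ubiquitin ligases that set PER and CRY stability, CSNK1E rose in sgXIST7 (2.27, from 28 to 115 counts over 3 libraries) and stood at 1.08 in sgXIST9 (adjusted p = 0.013), where the replicate block called it, and no other was called. NOCT rose in sgCtl by 1.48 and was not called in sgXIST7 (0.91) or sgXIST9 (-0.016). Between clones, NPAS2 was lower than sgCtl in both KD clones in both oxygen states, by -1.24 and -1.72 in normoxia and -1.48 and -2.04 in hypoxia, all called. In hypoxia HLF and TIMELESS were also called lower in sgXIST7 against sgCtl, and NOCT and RORA in sgXIST9. With only the groups compared, HLF in sgXIST7 and NOCT and RORA in sgXIST9 were not called. Of these genes, TIMELESS was not called without the hypoxia libraries of replicate 3. RORA was not called without sgXIST9 hypoxia replicate 1 or 2, and NOCT was not called without sgCtl hypoxia replicate 2.

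**Figure D5:**
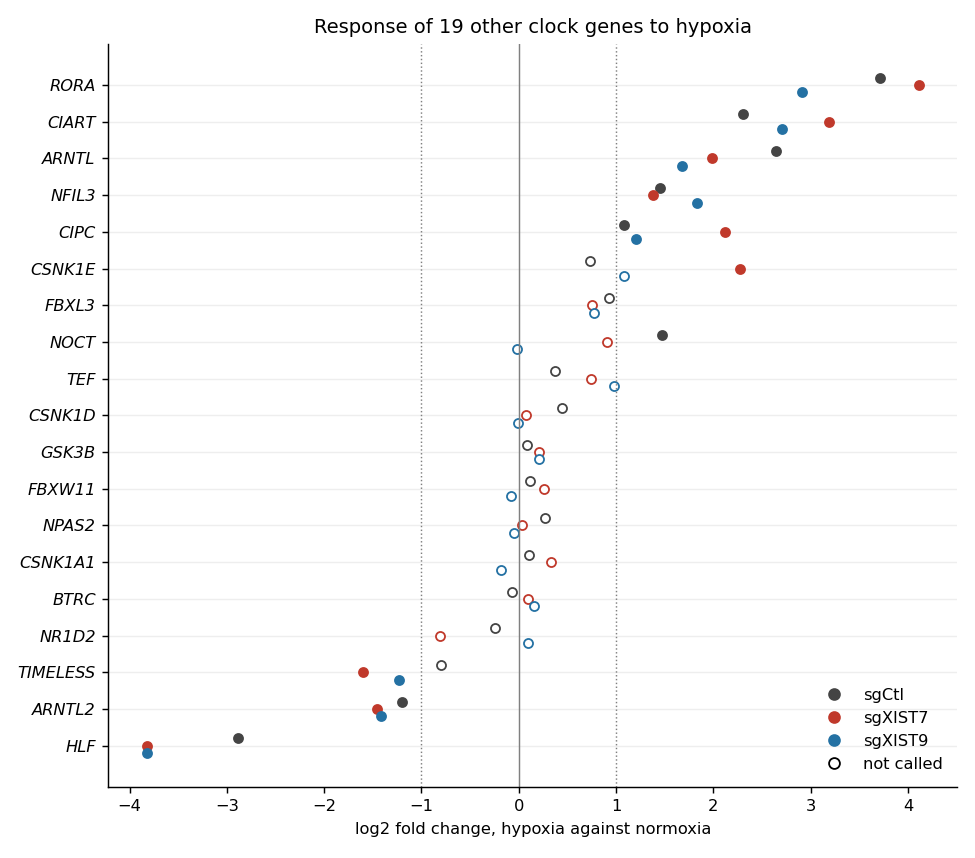
Log2 fold change of hypoxia against normoxia for 19 other clock genes in sgCtl, sgXIST7 and sgXIST9, sorted by their mean. Filled points were called and dotted lines mark the fold limit; RORA (2.92 to 4.11) and HLF (-3.82 to -2.88) are at the ends.

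A reference list of 10 known hypoxia-induced genes gives a scale for these values: 8 rose in sgCtl, 9 in sgXIST7 and 9 in sgXIST9, with median log2 fold changes of 3.48, 3.53 and 3.12. The largest values were those of CA9 (6.99 in sgXIST9) and ANKRD37 (6.40 in sgXIST7). BHLHE40 at 4.14, 3.39 and 3.90 was above that median in sgCtl and sgXIST9, and PER1, PER2 and CRY2 were below it in all 3 clones.

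Across the 18 libraries, the genes with a mean count of at least 100 whose log2 CPM followed BHLHE40 most closely were TNIP1 (Pearson r = 0.993), ZNF160 (0.990) and KDM3A (0.988). For PER1 they were MAP1LC3B (0.984), FAM160A1 (0.981) and MIDEAS (0.978), and for BHLHE41 LRRC41 (0.961), FUT11 (0.961) and KDM5C (0.960). All 18 points share the same contrast of 9 normoxia and 9 hypoxia libraries, so any gene with a large response scores high, and the values are a description of 10710 genes compared.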

How the data were processed

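Total RNA of 18 OVCAR3 libraries (3 per group) was sequenced after ribosomal RNA depletion with a stranded kit. The authors trimmed reads with Trimmomatic, checked them with FastQC, aligned them to hg38 with HISAT2, counted them per gene with featureCounts and used DESeq2; versions, the annotation release and the strand setting are not given in the sources used here. The deposited table holds raw counts per gene, with no normalization, and gene lengths. It had 28279 lines, of which 2 were broken, held 0 counts and were left out. Samples were mapped to groups by their labels.

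Counts were scaled by TMM and tested with edgeR 4.0.16 (limma 3.58.1, R 4.3.3): low genes were dropped by filterByExpr (at least 10 counts in enough libraries, 15 in total), followed by 1 quasi-likelihood fit over the 6 groups (robust, prior count 0.125), 12 comparisons, Benjamini-Hochberg adjustment over 14938 genes. The limits for a call, 0.01 on the adjusted p and 1 on the size of the log2 fold change, are those of the study's methods. CPM and RPKM used TMM library sizes and the deposited lengths. Other genes were named where called in any comparison, 1 gene of the clock list is not reported here, and the genes most alike were the 3 with the highest Pearson r. DESeq2 1.42.0, scalings, filters, left-out libraries and a replicate block were alternatives. Test scripts were checked on simulated counts. The members and lists were chosen with earlier results of these data known. The depth per library (11794375 to 24906936 counts) limits low genes such as BHLHE41. Promoter windows came from a RefSeq table (GRCh38.p14), in which all 10 genes matched; protein sequences were not used here.

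Replicate numbers come from the labels, which do not say that a number marks a shared day or culture, and p-values then measure the spread between these libraries. Of 45 same-numbered pairs of libraries from different groups, 15 had deviations from their group means correlated above 0.1. Every pair did so for sgCtl with sgXIST7 in normoxia (0.148 to 0.379) and for sgCtl with sgXIST9 in hypoxia (0.197 to 0.566).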

Additional observations from a re-analysis of the deposited data

Results flagged for a closer look

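The response to hypoxia differed between clones, by the interaction test of edgeR at an adjusted p below 0.05, for 1 of the 10 clock genes in sgXIST7 against sgCtl and for none in the other 2 comparisons of responses, beside 9.39%, 5.27% and 1.34% of all genes. BHLHE41 had no normoxia count and could not pass. BHLHE40 responded less in sgXIST7 than in sgCtl, with a difference of -0.75 on the log2 scale (adjusted p = 0.04). Its normoxia libraries were higher in sgXIST7 (12.03 to 19.8 CPM) than in sgCtl (9.36 to 10.6 CPM), while its hypoxia libraries overlapped. Leaving out 1 library at a time gave -0.94 to -0.61, with an adjusted p of 0.0099 to 0.091, so the call at 0.05 depends on single libraries, and with only the groups compared it was 0.069. PER2 passed 0.05 under DESeq2 for sgXIST9 minus sgCtl (adjusted p = 0.042) and for sgXIST7 minus sgXIST9 (0.022), and under the replicate block for the latter (0.047).

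Among the other clock genes, sgXIST7 differed from sgCtl in the response of CIART by 0.89 (adjusted p = 0.025), of CIPC by 1.03 (0.018) and of TIMELESS by -0.81 (0.015). The difference of CIPC was called under DESeq2, under the replicate block and at an adjusted p under 0.05. For NOCT the response of sgXIST9 was -1.49 from that of sgCtl (adjusted p = 0.0064), the 1 difference of a response on that list called in the fit of all groups. It was called without the hypoxia library of replicate 3 of either clone and was not called without any of the other 10 libraries of the comparison, each left out alone, or with only the groups compared.

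EPAS1, which encodes HIF-2α, responded less in sgXIST9 than in sgCtl, by -1.05 (adjusted p = 0.038), and more in sgXIST7 than in sgXIST9, by 1.69 (0.006). THRA, the neighbour that overlaps NR1D1, differed from sgCtl by 1.10 in sgXIST7 (adjusted p = 0.0064) and by 0.88 in sgXIST9 (0.024). What the guide and the clone each contribute to these values cannot be told apart.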

How the results depend on the processing

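The hypoxia counts of 5, 5 and 4 called clock genes in sgCtl, sgXIST7 and sgXIST9 kept within 1.5 times under DESeq2, both other scalings, both filters, the fit of only the groups compared and the replicate block. BHLHE41 was filtered out, and so not tested, at a mean CPM of at least 1. The same held with only the groups compared in sgCtl and sgXIST7. In sgCtl the count was 3 with all libraries of replicate number 3 left out (PER1, adjusted p = 0.014, and BHLHE41, 0.013, were lost) and 3 to 5 with 1 library left out, 3 without sgCtl hypoxia replicate 2. For sgXIST7 against sgCtl in hypoxia the count of 0 became 1 (PER1) under DESeq2, the replicate block or an adjusted p under 0.05, and was 0 to 1 with 1 library left out (1 without sgXIST7 hypoxia replicate 1). For sgXIST7 against sgXIST9 in hypoxia the count of 1 (PER1) became 0 with no filter on low counts, with only the groups compared and with either set of replicate 3 libraries left out, and was 0 to 1 with 1 library left out. With the hypoxia libraries of replicate 3 left out, an alternative chosen after seeing the data, sgXIST9 against sgCtl in hypoxia gave 1 (PER2, -1.08), as it did with all libraries of replicate number 3 left out, and the response of sgXIST9 minus that of sgCtl gave 1 (PER2). With an adjusted p under 0.05 and no fold limit, hypoxia in sgXIST9 gave 7, sgXIST7 and sgXIST9 against sgCtl gave 2 and 1 in normoxia and 3 and 5 in hypoxia, sgXIST7 against sgXIST9 in hypoxia gave 4, and the response of sgXIST7 minus that of sgCtl gave 1. The causes were not tested. The log2 fold change changed sign for genes near 0. For NR1D1 in sgCtl it became 0.047 and 0.065 with all or the hypoxia libraries of replicate number 3 left out, and with 1 library left out -0.26 to 0.063. With 1 library left out NR1D1 in sgXIST7 ran from -0.28 to 0.23, CRY1 in sgCtl from -0.24 to 0.0051 and CLOCK in sgXIST9 from -0.23 to 0.019. Counts over all genes moved as well. With only the groups compared, the hypoxia comparisons of sgXIST7 with sgCtl, sgXIST9 with sgCtl and sgXIST7 with sgXIST9 gave 1113, 641 and 323 genes in place of 2093, 1423 and 666. The 3 comparisons of responses, with 227, 151 and 25 genes, gave 548, 359 and 146 under DESeq2, 79, 90 and 15 with only the groups compared, 706, 468 and 130 at an adjusted p under 0.05, 801, 485 and 59 without all libraries of replicate number 3, and 1288, 822 and 289 without those of hypoxia. The first and the last gave 371 and 56 under the replicate block, and the last 39 with no filter. At an adjusted p under 0.05 with no fold limit, hypoxia changed 7671, 8816 and 8258 genes in sgCtl, sgXIST7 and sgXIST9 in place of 2949, 4077 and 3474. Upper-quartile scaling moved the share of higher calls from 65.6% to 75.7% for the response of sgXIST9 minus that of sgCtl. No scaling moved the median of all genes by more than 0.1.

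The replicate block changed no other call of the 10 genes. On the list of other clock genes it also called CSNK1E in hypoxia in sgXIST9 and in sgXIST7 against sgCtl in normoxia, and CIPC in the response of sgXIST7 minus that of sgCtl. Of 45 comparisons of a library with the 3 of another group, 23 correlated best with their own number, a hint from the data only, since the labels do not say what a number marks. In both comparisons where every pair correlated, none of the 10 genes was called with or without the block. In normoxia BHLHE41, without a count, could not be called. Where a library was left out of a group, the remaining libraries share 1 estimate of the spread with all groups. Depth limits BHLHE41, with at most 21 counts in a library, and groups of 3 limit the exact test to p = 0.1.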

Other observations

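Transcripts of the oxygen-sensing bHLH-PAS factors, the relatives of CLOCK, differed between the clones. HIF1A, which encodes HIF-1α, averaged 757 ± 56.4 CPM (SD, n = 3) in sgXIST7 normoxia, beside 245 in sgCtl and 223 in sgXIST9, and its log2 difference of sgXIST7 from sgCtl was 1.62 in normoxia and 1.32 in hypoxia, both called. Its own response to hypoxia was -0.32, -0.63 and -0.27 in sgCtl, sgXIST7 and sgXIST9, below the fold limit. EPAS1 rose in hypoxia in all 3 clones, by 2.29, 2.94 and 1.25 on the log2 scale. ARNT, their shared partner, was not called in any of the 3 (-0.019, 0.078 and 0.15).

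In the hypoxia libraries of replicate 3 the clock genes did not all move one way. CLOCK was highest there in all 3 clones, at 1.26, 1.19 and 1.30 times the mean of the other 2 libraries, and CRY2 was lowest in all 3, at 0.716, 0.927 and 0.904 times. PER1 stood at 1.11, 1.67 and 1.56 times and DBP at 0.682, 0.912 and 0.644 times.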
